A study of Mus musculus with 48 samples.

Results

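The 9 genes described here were the nucleoside transporter gene Slc28a1, the manganese exporter gene Slc30a10, the cubilin gene Cubn, the carboxylesterase genes Ces1g and Ces1d, the colipase gene Clps, the monoamine oxidase gene Maob, the adhesion gene Kirrel and the histone chaperone gene Hjurp. They are 9 of the 53465 genes in the count table, and all 9 were among the 15126 genes that passed the filter on low counts and were tested. They form a fixed list, chosen by their differences between mice with vertical sleeve gastrectomy (VSG) and sham mice in these same libraries, so those differences are given below as a description. Counts of the 9 genes called in them repeat the choice, and nothing is read from them. Differences between gut regions were not a criterion of the choice and were tested. Their averages hold the VSG and sham libraries that took part in the choice. The counts with sham libraries only are given beside them, and those libraries took part in the choice too.

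Enteroendocrine cells (EECs) were sorted as EYFP-positive, CD45-negative cells from lean male Neurod1-cre-eYFP mice on a C57BL6 background, and 48 libraries from 17 mice were sequenced. The mice were about 20 weeks old when moved to liquid diet before surgery. Every mouse carried the Cre and reporter alleles, so that the sort holds any cell in which Neurod1 had driven Cre, and the CD45 gate was set to leave immune cells out. The duodenum (the first 5 cm of small intestine), the ileum (the last 15 cm) and the colon with rectum each gave 5 libraries from sham-operated mice fed ad libitum, 5 from sham-operated mice given food to match the weight of the VSG mice, and 6 from VSG mice. Sham ad libitum libraries came from 6 mice, weight-matched from 5 and VSG from 6, and 15 mice gave all 3 regions. In VSG mice 70 to 80% of the stomach was removed. VSG mice also received weekly subcutaneous vitamin B12, which the methods do not describe for sham mice, and so for Cubn the surgery and the vitamin cannot be told apart. All mice had a liquid diet around surgery and then chow, and tissue was taken 6 weeks after surgery, after an overnight fast and about 15 min after 3 g/kg of glucose by gavage.

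EECs are scattered hormone-secreting cells of the gut epithelium, and the type of hormone they make depends on where along the gut they lie. Most epithelial absorption is carried out by their neighbours, the enterocytes, whose brush border holds nutrient transporters and receptors. Slc28a1 encodes CNT1, which takes up pyrimidine nucleosides together with sodium, Slc30a10 encodes an exporter of manganese, and cubilin is the ileal receptor for vitamin B12 bound to intrinsic factor. Carboxylesterases hydrolyse ester bonds of lipids and drugs in the endoplasmic reticulum, colipase is a cofactor of pancreatic lipase, and monoamine oxidase B breaks down amines on the outer mitochondrial membrane. Kirrel encodes NEPH1, an immunoglobulin-like adhesion protein best known from the kidney filtration barrier, and Hjurp places the histone CENP-A at centromeres.

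By position in GRCm38, Slc28a1 lies on chr7:81114799-81170416 (plus strand), Slc30a10 on chr1:185454848-185468762 (plus), Cubn on chr2:13276338-13491813 (minus) and Hjurp on chr1:88262471-88277633 (minus). Ces1g (chr8:93302369-93337308) and Ces1d (chr8:93166068-93197838) lie on the minus strand of the same cluster, 104530 bases apart. Clps lies on chr17:28558149-28560766, Maob on chrX:16709282-16817366 and Kirrel on chr3:87078593-87174747, all on the minus strand. Values are counts over the exons of each gene.

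The RefSeq promoter table of GRCm38.p6 matched 6 of the 9 genes, and 3 promoters are printed because the genes had the most unequal levels along the gut, with Ces1g highest in the colon, Cubn in the ileum and Slc28a1 in the duodenum. Each runs 5′ to 3′ on the strand of its gene and stops before the annotated gene begins. The Ces1g window is chr8:93337309-93337459 (minus strand), the Cubn window chr2:13491877-13492126 (minus) and the Slc28a1 window chr7:81114549-81114798 (plus). Capitals mark matches on either strand to the letters AGATAA for GATA factors, TTTATG for CDX factors, GTTAAT for HNF1 or TATAAA for a TATA box.
Ces1g: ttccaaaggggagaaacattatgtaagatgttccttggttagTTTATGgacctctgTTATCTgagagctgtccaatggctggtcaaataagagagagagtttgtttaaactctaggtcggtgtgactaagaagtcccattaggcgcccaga
Cubn: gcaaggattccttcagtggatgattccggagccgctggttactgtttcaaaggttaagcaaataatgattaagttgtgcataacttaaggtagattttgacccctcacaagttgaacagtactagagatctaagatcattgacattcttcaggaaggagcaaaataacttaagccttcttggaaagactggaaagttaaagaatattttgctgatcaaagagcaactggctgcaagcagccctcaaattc
Slc28a1: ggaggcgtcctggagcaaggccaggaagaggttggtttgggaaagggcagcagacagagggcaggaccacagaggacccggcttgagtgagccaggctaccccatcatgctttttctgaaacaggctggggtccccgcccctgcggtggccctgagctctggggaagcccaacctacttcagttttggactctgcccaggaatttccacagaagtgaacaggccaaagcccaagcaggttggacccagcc
The Ces1g window held 1 CDX match on the plus strand of the printed sequence, 208 bases before the RefSeq start, and 1 GATA match on the other strand. Of 32851 promoters in the table, 6.77% held the CDX letters and 6.58% the GATA letters in a window of the same length and place. The letters searched were not in the windows of the other 5 genes, and a match is a description of the sequence only.

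Libraries held 4648651 to 17182463 counts (median 6713018), and levels are given as CPM, counts scaled to a common library total after TMM normalisation. The sum of 8 enteroendocrine markers, among them Neurod1, Chga and Chgb, was 28797 to 98854 CPM in 47 libraries. The exception was the duodenum library of weight-matched mouse 27, at 11615 CPM, which had 50261 CPM of 15 summed enterocyte markers against 5924 to 15729 CPM in the other 15 duodenum libraries, and 3776 CPM of 6 summed Paneth cell markers against 124 to 807 CPM. The sum of 7 immune markers was 1864 CPM in that library, against 21.97 to 639 CPM in the other duodenum libraries, 162 to 1343 CPM in the ileum and 2.77 to 363 CPM in the colon. In each small-intestinal library at least 83.0% of this sum was Cd74, a gene of antigen presentation, while Ptprc, which encodes CD45, had 13.7 CPM in that library and 0 to 8.16 CPM in the other 47. Enterocyte markers summed to 4622 to 17566 CPM in the ileum and 492.7 to 1075 CPM in the colon. Mouse 12 has ileum and colon libraries whose tissue labels disagree with the codes in their descriptions, and here the tissue labels were followed. The library labelled ileum had 13064 CPM of enterocyte and 5555 CPM of Paneth cell markers, and that labelled colon 732 and 16.4 CPM. Each sum lay within the range of the other libraries of the labelled region, so the markers match the tissue labels. In such bulk libraries fewer cells of a type and less RNA per cell cannot be told apart.

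**Figure D1:**
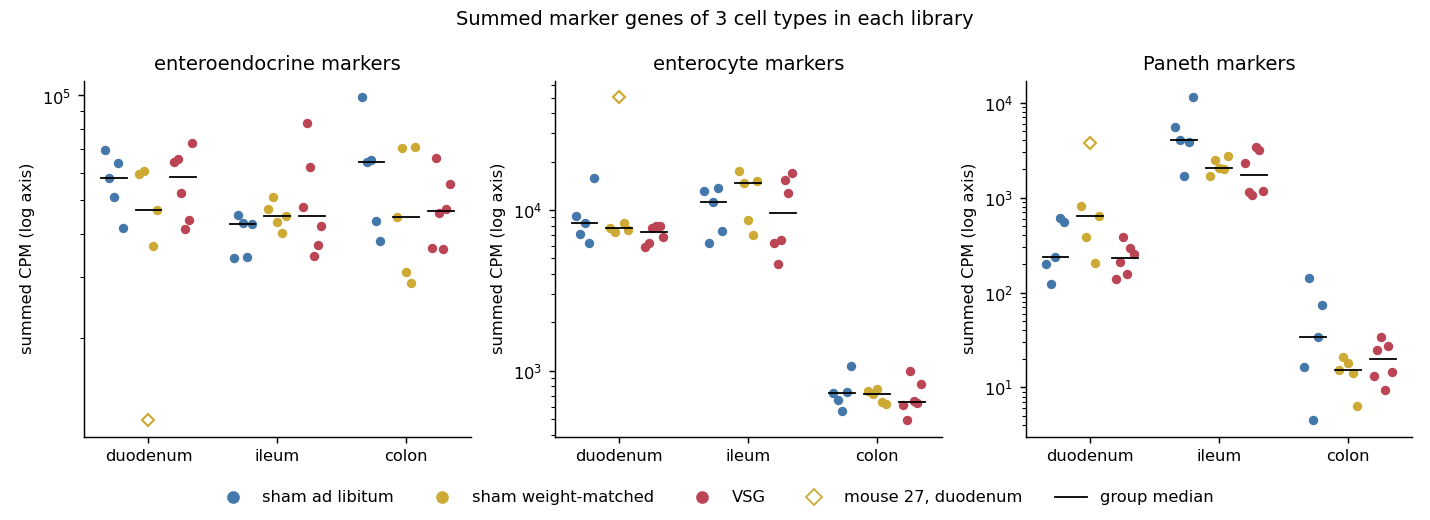
Summed CPM (log axis) of 8 enteroendocrine, 15 enterocyte and 6 Paneth cell marker genes in each library, by region and surgery group, with a line at each group median. The open diamond, the duodenum library of mouse 27, has the lowest enteroendocrine sum (11615 CPM) and the highest enterocyte sum (50261 CPM) of all libraries.

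The first comparison asked how the 9 genes differ along the gut in sorted EECs. Ces1g, Ces1d and Kirrel were higher in the colon than in either part of the small intestine, Slc28a1, Cubn, Clps and Hjurp were lower in the colon than in either, and Cubn was highest in the ileum. By edgeR's quasi-likelihood test, averaged over the 3 surgery groups, at a Benjamini-Hochberg adjusted p of 0.05 over every gene tested, 6 of 9 genes differed between ileum and duodenum, where 33.8% of all tested genes did. Between colon and duodenum 8 of 9 differed, against 55% of all tested genes, and between colon and ileum 9 of 9 did, against 49.2%. With sham libraries only, the counts were 5, 9 and 8. Of all tested genes 17.2% were higher and 16.6% lower in ileum than in duodenum, 26.8% higher and 28.3% lower in colon than in duodenum, and 23.8% higher and 25.4% lower in colon than in ileum. The pathway counts given below are read against these shares, and no list was tested for enrichment. The median log2 fold changes of all tested genes were 0.0045, -0.015 and -0.011 in these 3 contrasts, and list medians given below are on the same scale. Libraries of a region came from separate mice, and the test treats the libraries of 1 mouse in several regions as independent.

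**Figure D2:**
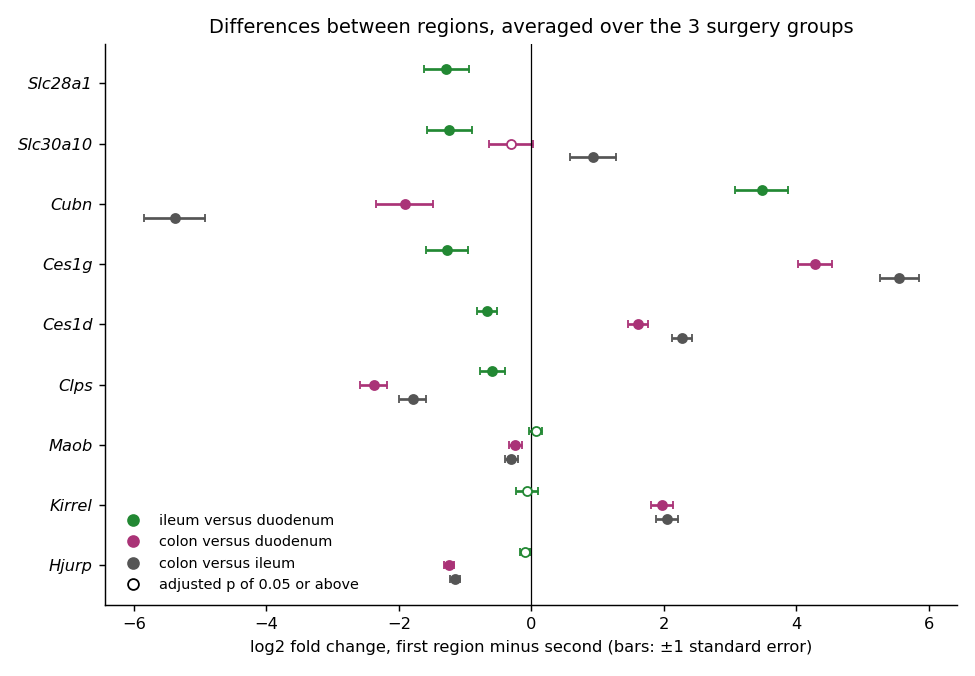
Log2 fold changes between regions, averaged over the 3 surgery groups, with bars of 1 standard error, for the 9 genes. Open points did not pass the adjusted p of 0.05. The Ces1g and Ces1d points lie to the right for the colon and those of Cubn and Clps to the left, and the colon contrasts of Slc28a1 are left out because the gene had no counts in weight-matched colon libraries.

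Slc28a1 was a gene of the duodenum and ileum. Its mean level was 9.70 ± 13.4 CPM in the duodenum, 3.35 ± 2.35 CPM in the ileum and 0.227 ± 0.542 CPM in the colon (SD, n = 16 each). In the duodenum the 5 sham ad libitum libraries had 9.97, 9.06, 6.81, 4.61 and 15.7 CPM, and the weight-matched libraries 10.3, 8.29, 57.8 (mouse 27), 9.12 and 8.08 CPM. The VSG libraries ran from 1.01 through a median of 1.83 to 4.79 CPM. Every VSG library was thus below every weight-matched library, while the highest VSG library lay just above the lowest sham ad libitum library.

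In the ileum, Slc28a1 had 4.66, 3.58, 3.59, 3.93 and 3.10 CPM in sham ad libitum mice and 8.05, 5.09, 0.284 (mouse 27), 2.88 and 8.50 CPM in weight-matched mice. VSG libraries had 0.712 to 2.23 CPM (median 1.75), below all sham ad libitum libraries but not below mouse 27. In the colon, 12 of 16 libraries had no Slc28a1 count: the 5 weight-matched libraries had 0 counts together, the 6 VSG libraries 1 count and the 5 sham ad libitum libraries 18 counts, in 3 mice.

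Between regions, Slc28a1 was lower in ileum than in duodenum (log2 fold change -1.28, SE 0.340, adjusted p = 0.00276), in 13 of 15 mice with both. With the counts of all libraries pooled, duodenum exceeded colon 50.9-fold (95% exact binomial interval 32.4 to 84.8) and ileum exceeded colon 18.2-fold (11.5 to 30.6). In weight-matched mice alone, taking 3 counts over the group as the limit a count of 0 allows, the duodenum level was at least 200.3-fold higher and the ileum level at least 55.8-fold higher. The duodenum library of mouse 27 held 400 of the 676 counts behind the first limit, which was 100.1-fold without it, and the pooled ratio of duodenum to colon was then 36.6-fold (23.3 to 61.0). These intervals and limits cover counting error only. The colon was below both other regions in every mouse that had the libraries. Without the duodenum library of mouse 27 the ileum difference was -0.93 (adjusted p = 0.0141).

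After VSG the fitted log2 difference of Slc28a1 from sham ad libitum mice was -1.86 (SE 0.564) in the duodenum and -1.23 (SE 0.616) in the ileum. From weight-matched mice it was -2.88 (SE 0.573) in the duodenum and -1.62 (SE 0.605) in the ileum. The duodenum value without the mouse 27 library was -1.81 (SE 0.529). In the colon the 18 counts in sham ad libitum against 1 in VSG libraries gave a pooled ratio of 21.4 (3.38 to 892), and weight-matched and VSG libraries were both under the limit of 3 counts.

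Of 16 other tested genes of nucleoside transport and salvage, 9 were lower and 2 higher in colon than in duodenum, and 10 lower and 2 higher than in the ileum. Between ileum and duodenum 3 were higher and 5 lower. The 11 of 16 called in either direction between colon and duodenum stand beside 55% of all tested genes, and the median log2 fold changes of the list were -0.74 there, -0.59 between colon and ileum and -0.12 between ileum and duodenum. Slc28a2, the purine-preferring relative, was lower in colon than in duodenum (log2 fold change -3.18, SE 0.405, adjusted p = 8.17e-09), as was Ada, adenosine deaminase (-5.86, SE 0.499, adjusted p = 2.53e-13), and Cda, cytidine deaminase (-2.55, SE 0.121, adjusted p = 1.63e-23). Slc29a4, a transporter of monoamines in the equilibrative nucleoside family, was higher there (2.00, SE 0.179, adjusted p = 2.65e-13). Over the 3 regions VSG minus sham ad libitum mice gave 0.59 (SE 0.366) for Slc28a2 and 0.24 (SE 0.260) for Slc28a3, and none of the 16 passed the test in either VSG contrast.

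Slc30a10 was highest in the colon of VSG mice. In the colon the sham ad libitum libraries had 12.1, 4.77, 7.45, 13.4 and 13.6 CPM and the weight-matched libraries 9.36, 9.50, 14.8, 6.70 and 8.58 CPM. The VSG libraries had 42.3, 14.6 (mouse 18), 43.4, 53.5, 62.9 and 44.3 CPM. All 6 VSG libraries lay above all sham ad libitum libraries, and 5 of 6, all but mouse 18, above all 10 sham libraries. The fitted log2 difference in the colon was 2.09 (SE 0.587) from sham ad libitum and 2.15 (SE 0.587) from weight-matched mice.

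In the ileum, Slc30a10 had 3.98 to 11.004 CPM in sham ad libitum, 4.05 to 13.8 CPM in weight-matched and 3.01 to 22.2 CPM in VSG libraries (median 13.8 CPM). The groups overlapped, with log2 differences of 1.17 (SE 0.613) and 0.73 (SE 0.588) from the respective sham groups. In the duodenum the sham ad libitum libraries had 19.6, 10.05, 11.1, 6.40 and 14.8 CPM, the weight-matched libraries 12.97, 7.69, 142.8 (mouse 27), 11.5 and 4.85 CPM, and the VSG libraries 6.98 to 25.4 CPM (median 19.3 CPM). The duodenum library of mouse 27 alone set the direction there: the log2 difference of VSG from weight-matched mice was -0.97 (SE 0.543) with it and 0.98 (SE 0.423) without it.

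That library also bore on the regions. Slc30a10 averaged 21.98 ± 32.8 CPM in the duodenum, 9.45 ± 6.20 CPM in the ileum and 22.6 ± 19.3 CPM in the colon (SD, n = 16 each), and 13.9 ± 6.53 CPM in the duodenum without mouse 27 (n = 15). It was lower in ileum than in duodenum (log2 fold change -1.24, SE 0.340, adjusted p = 0.00389), and the value was -0.59 (adjusted p = 0.0474) without that library. Colon exceeded ileum (0.93, SE 0.345, adjusted p = 0.0228), but with sham libraries only the value was 0.55 (adjusted p = 0.375), and the call was lost without mouse 24 or 32. Colon against duodenum gave -0.31 (SE 0.328, adjusted p = 0.446), and 0.36 (adjusted p = 0.193) without the library. With sham libraries only the colon was lower than the duodenum (-1.08, SE 0.443, adjusted p = 0.0480). With the second library index as a covariate the value was -1.82 (SE 0.574, adjusted p = 0.0146). That index largely follows the region, so index and region can hardly be told apart in that fit, and nothing is read from it.

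Among 12 tested genes of the SLC30 family and of manganese and iron transport, 4 were lower and none higher in colon than in duodenum, 2 higher and 4 lower in colon than in ileum, and 1 higher and 2 lower in ileum than in duodenum, with list medians of -0.13, -0.13 and -0.07. Slc40a1, ferroportin, was lowest in the ileum, at -2.58 (SE 0.322, adjusted p = 2.37e-08) against the duodenum and 3.03 (SE 0.326, adjusted p = 1.88e-10) for colon over ileum. Slc30a10 had smaller differences of the same signs, and its colon over ileum call was lost with sham libraries only. The zinc transporter gene Slc30a2 ran the other way, higher in ileum than in duodenum (0.91, SE 0.283, adjusted p = 0.0105) and lower in colon than in ileum (-4.17, SE 0.354, adjusted p = 1.37e-13). None of the 12 passed the test in a VSG contrast. The exons of Slc30a10 overlap the non-coding gene Gm2061 on the opposite strand, which holds 8.36% of its 50-base words, and the strand setting of the counting is not given in the sources used here.

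Cubn had the steepest ileal maximum of the 9 genes. It averaged 23.8 ± 23.5 CPM in the duodenum, 232 ± 184 CPM in the ileum and 5.40 ± 4.99 CPM in the colon (SD, n = 16 each). Ileum exceeded duodenum in 15 of 15 mice (log2 fold change 3.47, SE 0.406, adjusted p = 5.59e-09), and colon was below ileum in 16 of 16 (-5.39, SE 0.459, adjusted p = 3.96e-13). Colon was also below duodenum, in 14 of 15 mice (-1.91, SE 0.428, adjusted p = 0.000205). Per kilobase of exon, Cubn was the third of the 9 genes in the ileum and the eighth in the duodenum and colon.

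In the ileum the sham ad libitum libraries had 740.0 (mouse 12), 102, 272, 181 and 143 CPM of Cubn and the weight-matched libraries 388, 366, 324, 107 (mouse 29) and 355 CPM. The VSG libraries had 118.6 (mouse 11), 17.2 (18), 45.9 (22), 207.9 (25), 34.4 (28) and 314 (30) CPM. The VSG libraries overlapped both sham groups, with 3 of 6 below all sham libraries. The log2 difference was -1.24 (SE 0.619) from sham ad libitum and -1.33 (SE 0.620) from weight-matched mice, and the former was -0.52 (SE 0.635) without the ileum and colon libraries of mouse 12.

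In the duodenum the sham ad libitum libraries had 40.3, 11.9, 38.8, 18.8 and 54.9 CPM of Cubn, the weight-matched libraries 11.6, 33.7, 88.7 (mouse 27), 6.20 and 33.8 CPM, and the VSG libraries 3.54 to 12.1 CPM (median 5.53 CPM). The VSG libraries were at the low end but overlapped both groups, at log2 differences of -2.25 (SE 0.679) and -2.34 (SE 0.681), the latter -1.65 (SE 0.694) without the mouse 27 library. In the colon Cubn was low throughout, 1.71 to 20.8 CPM in sham ad libitum, 1.77 to 11.7 CPM in weight-matched and 1.23 to 6.22 CPM in VSG libraries.

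Of 10 tested genes of the cubilin complex and vitamin B12 handling, 2 were higher and 3 lower in ileum than in duodenum, 5 higher and 3 lower in colon than in duodenum, and 5 higher and 2 lower in colon than in ileum, with list medians of -0.07, 0.35 and 0.36. Amn, amnionless, the membrane partner of cubilin, followed Cubn at smaller steps, higher in ileum than in duodenum (0.58, SE 0.156, adjusted p = 0.00325) and lower in colon than in ileum (-2.79, SE 0.173, adjusted p = 2.08e-18). Cd320, the receptor for B12 bound to transcobalamin, was lowest in the ileum (-0.75 against duodenum, SE 0.149, adjusted p = 6.93e-05, and 1.24 for colon over ileum, SE 0.149, adjusted p = 8.87e-10). Averaged over regions, VSG minus sham ad libitum gave -0.19 (SE 0.160) for Amn and -1.45 (SE 0.402) for Cubn, and none of the 10 genes passed the test in a VSG contrast. An antisense transcript, Gm13270, shares 1.85% of the 50-base words of Cubn.

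**Figure D3:**
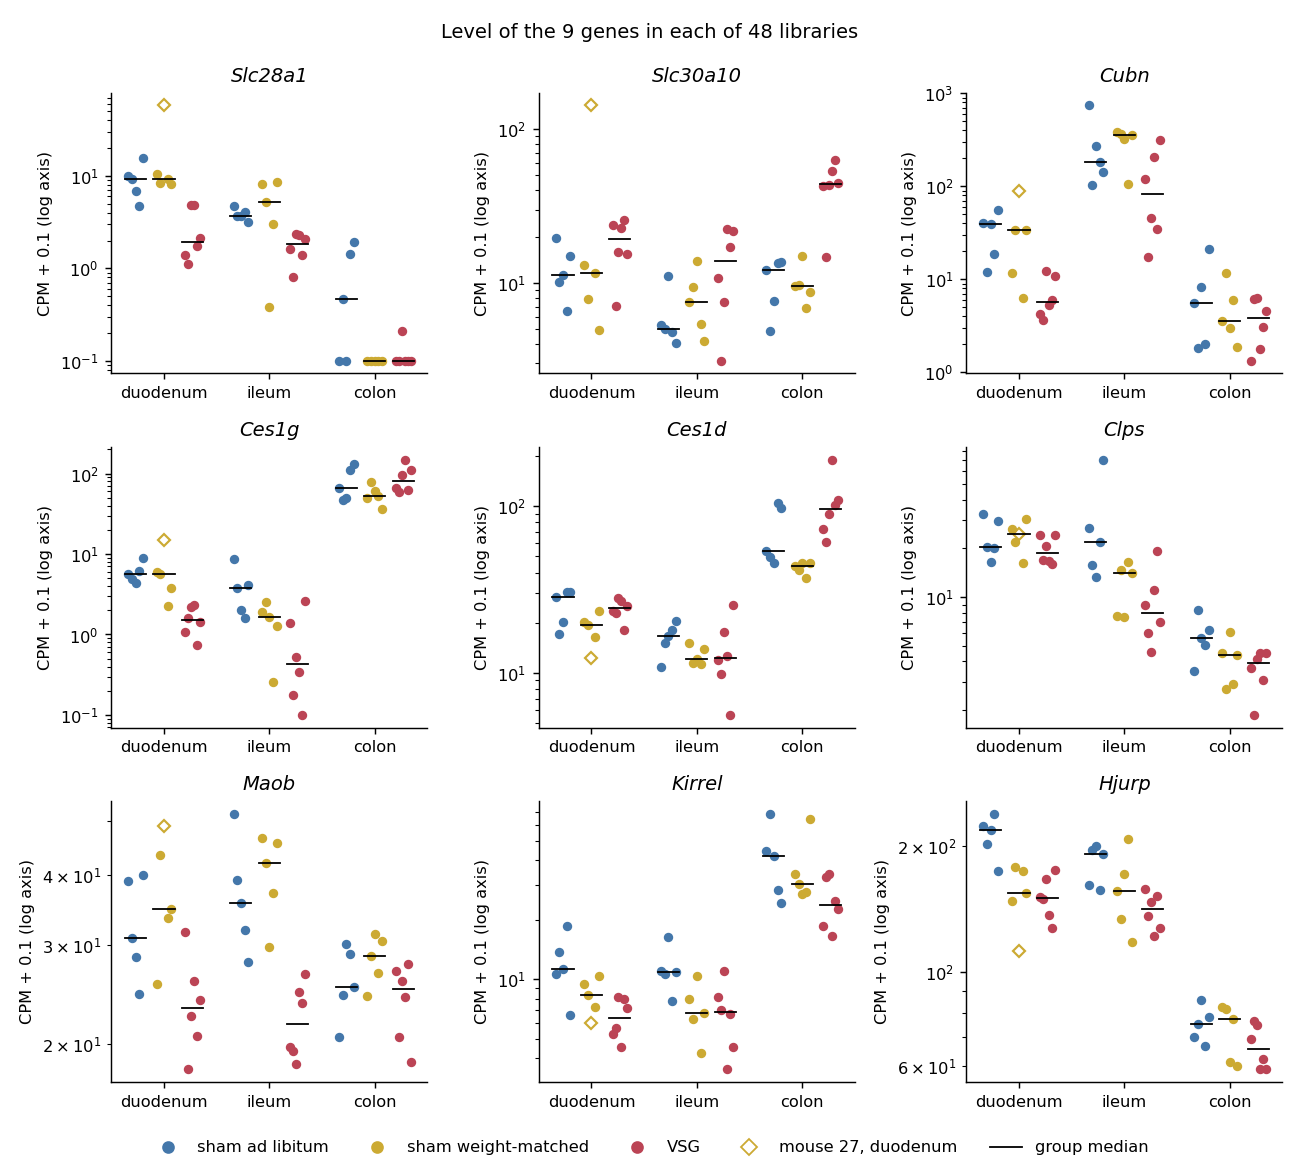
CPM + 0.1 (log axis) of each of the 9 genes in each of 48 libraries, by region and surgery group, with a line at each group median. In the colon the 6 VSG libraries sit above all sham ad libitum libraries for Slc30a10 and above all weight-matched libraries for Ces1d. The open diamond is the duodenum library of mouse 27.

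The 2 carboxylesterases were both genes of the colon, but to different degrees. Ces1g averaged 4.40 ± 3.60 CPM in the duodenum, 1.95 ± 2.12 CPM in the ileum and 76.5 ± 33.1 CPM in the colon, and Ces1d 22.6 ± 5.43, 14.2 ± 4.74 and 74.3 ± 40.1 CPM (SD, n = 16 each). For both, every colon library was above every library of the other regions. Colon exceeded duodenum for Ces1g by 4.28 (SE 0.262, adjusted p = 2.78e-18) and for Ces1d by 1.60 (SE 0.1499, adjusted p = 7.30e-13) on the log2 scale.

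Colon exceeded ileum by 5.55 (SE 0.296, adjusted p = 5.23e-20) for Ces1g and 2.27 (SE 0.156, adjusted p = 5.13e-17) for Ces1d. Both were lower in ileum than in duodenum, at -1.27 (SE 0.320, adjusted p = 0.00166) for Ces1g, in 12 of 15 mice, and -0.67 (SE 0.153, adjusted p = 0.000557) for Ces1d, in 14 of 15 mice. The Ces1d call was lost with the second library index as a covariate. Per kilobase of exon the pair led the 9 genes in the colon, at 32.04 CPM for Ces1g and 31.4 CPM for Ces1d, while in the duodenum they stood at 1.84 and 9.55 CPM per kilobase.

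Ces1g was low in the small intestine of VSG mice. In the duodenum the sham ad libitum libraries had 5.51, 4.78, 4.26, 6.10 and 8.89 CPM, the weight-matched libraries 5.96, 5.50, 14.7 (mouse 27), 2.19 and 3.67 CPM, and the VSG libraries 0.631 to 2.22 CPM (median 1.41 CPM). All VSG libraries were below all sham ad libitum libraries, and mouse 29 of the weight-matched group lay just below the highest VSG library. The log2 difference was -2.02 (SE 0.481) from sham ad libitum and -2.16 (SE 0.483) from weight-matched mice, the latter -1.63 (SE 0.489) without the mouse 27 library.

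In the ileum Ces1g had 8.46, 3.71, 1.91, 1.496 and 3.98 CPM in sham ad libitum, 1.81, 2.47, 1.56, 0.160 and 1.18 CPM in weight-matched and 0 to 2.48 CPM (median 0.331 CPM) in VSG libraries. These are 8 to 60 counts per library in sham ad libitum and 0 to 11 in VSG mice, the groups overlapped, and the log2 differences were -2.62 (SE 0.608) and -1.13 (SE 0.693), the latter -1.72 without mouse 30. In the colon, where the gene was abundant, the sham ad libitum libraries had 66.7, 47.2, 49.6, 110.4 and 133 CPM, the weight-matched libraries 49.99, 78.0, 60.3, 51.9 and 36.1 CPM and the VSG libraries 59.5 to 148 CPM (median 80.7 CPM). All 3 groups overlapped there, with log2 differences of 0.15 (SE 0.370) and 0.70 (SE 0.374). The difference of the VSG effect between regions was not tested.

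For Ces1d the VSG libraries stood apart in the colon. Weight-matched libraries had 43.6, 41.6, 45.5, 36.9 and 45.8 CPM, sham ad libitum libraries 53.7, 49.3, 45.7, 104.8 and 97.7 CPM, and VSG libraries 60.9 to 190.2 CPM (median 95.8 CPM). All VSG libraries were above all weight-matched libraries, with a log2 difference of 1.28 (SE 0.254), but they overlapped the sham ad libitum group (0.57, SE 0.248, and 0.31 without mouse 25). The difference of weight-matched from sham ad libitum mice was -0.71 (SE 0.260). In the small intestine all 3 groups overlapped, at 12.1 to 30.7 CPM in the duodenum and 5.49 to 25.5 CPM in the ileum.

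Summed over 7 colonocyte markers such as Car1 and Aqp8, colon libraries had 1630 to 5453 CPM and duodenum libraries 370.1 to 1238 CPM, and 7 of 7 markers were higher in colon than in duodenum by the test. Between VSG and sham ad libitum colon libraries 0 of 7 markers were fitted lower and none passed the test (median log2 difference 0.59, against 0.57 for Ces1d), with sums of 1973 to 5453 CPM and 1630 to 4491 CPM. Against weight-matched mice 3 of 7 were fitted lower (median 0.26, against 1.28 for Ces1d). Between weight-matched and sham ad libitum mice 0 of 7 were (median 0.46), where Ces1d was at -0.71. The part of these markers in the colon levels of Ces1g and Ces1d was not tested.

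Of 11 other tested carboxylesterase family genes, 6 were lower and none higher in ileum than in duodenum, 1 higher and 4 lower in colon than in duodenum, and 4 higher and 3 lower in colon than in ileum, with list medians of -1.28, -0.43 and 0.44. Ces1e, a further gene of the cluster, was lower in the ileum (-1.28, SE 0.226, adjusted p = 1.09e-05) and higher in colon than in ileum (1.61, SE 0.227, adjusted p = 4.96e-08). Ces2b showed the largest rise from ileum to colon of these 11 (2.71, SE 0.330, adjusted p = 1.31e-09). Ces3a went the other way, -4.17 (SE 0.315, adjusted p = 6.38e-16) in the colon against the duodenum. Ces2b was the sole gene of the 11 to pass the test between VSG and weight-matched mice, at a lower level in VSG mice (-1.34, SE 0.313), and none passed it against sham ad libitum mice. Of the 50-base words of Ces1g 1.67% occur in other genes, most of them in Ces1e, and of Ces1d 1.08%, so reads shared between paralogs were a small part.

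**Figure D4:**
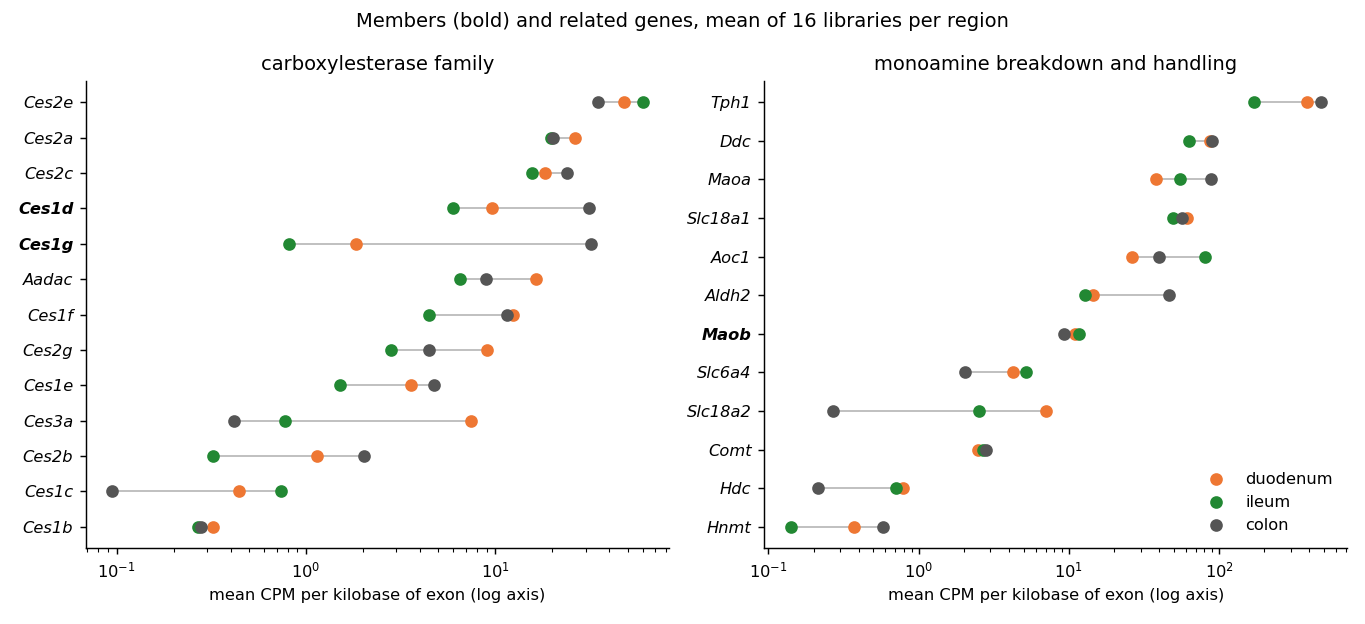
Mean CPM per kilobase of exon (log axis) in the duodenum, ileum and colon (n = 16 libraries each) of the carboxylesterase family on the left and of genes of monoamine breakdown and handling on the right, with Ces1d, Ces1g and Maob in bold. Ces1g spans the widest range towards the colon of the esterases, and the 3 points of Maob lie close together.

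Clps was a gene of the small intestine. It averaged 22.3 ± 5.37 CPM in the duodenum, 16.5 ± 15.7 CPM in the ileum and 4.34 ± 1.59 CPM in the colon (SD, n = 16 each), and per kilobase of its short exons it was first of the 9 genes in the duodenum (36.4 CPM) and ileum (27.01 CPM). Every colon library was below every duodenum library (log2 fold change -2.38, SE 0.202, adjusted p = 2.62e-14), and colon was below ileum in 16 of 16 mice (-1.79, SE 0.203, adjusted p = 2.32e-10). The ileum was lower than the duodenum in 12 of 15 mice (-0.59, SE 0.186, adjusted p = 0.0113). That difference did not pass the test with sham libraries only (-0.35, adjusted p = 0.322) or with the second library index as a covariate.

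In the ileum the sham ad libitum libraries had 26.7, 15.7, 13.2, 21.7 and 70.5 (mouse 32) CPM of Clps, the weight-matched libraries 7.56, 14.5, 7.38, 16.5 and 14.0 CPM and the VSG libraries 4.46 to 19.2 CPM (median 7.89 CPM). Mouse 32 was far above all others, and VSG libraries overlapped both sham groups. The log2 difference of VSG was -1.66 (SE 0.323) from sham ad libitum mice, -1.06 (SE 0.297) without mouse 32, and -0.37 (SE 0.327) from weight-matched mice, and that of weight-matched from sham ad libitum mice was -1.29 (SE 0.335), or -0.69 (SE 0.307) without mouse 32. Within the ileum, Paneth cell markers moved with these values. Their sum in the ileum was highest in mouse 32, at 11430 CPM against 1078 to 5555 CPM in the other 15 libraries, and the group ranges were 1688 to 11430 CPM in sham ad libitum, 1707 to 2766 CPM in weight-matched and 1078 to 3450 CPM in VSG mice. Of the 6 markers, such as Lyz1 and Mmp7, 6 were fitted lower in VSG than in sham ad libitum ileum (median log2 difference -1.40), 6 in weight-matched than in sham ad libitum (median -1.26) and 4 in VSG than in weight-matched ileum (median -0.14), none past the test. Along the gut, Paneth sums had medians of 274.5 CPM in the duodenum, 2419 CPM in the ileum and 17.3 CPM in the colon, where Clps averaged 22.3, 16.5 and 4.34 CPM. The duodenum library of mouse 27 had 3776 CPM of Paneth markers and 24.6 CPM of Clps, which ran from 16.2 to 30.1 CPM in the other 4 weight-matched libraries. The part of Paneth cells in the Clps values was not tested. In the duodenum the groups overlapped at 15.9 to 32.5 CPM, with a VSG difference of -0.27 (SE 0.309) from sham ad libitum mice, and in the colon at 1.77 to 8.20 CPM.

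Pnlip, pancreatic lipase, for which colipase is the cofactor, had 30 counts over all 48 libraries. The acinar markers Cela3b, Prss2, Try4 and Amy2a5 had 0 counts in every library. Over all libraries Amy2b had 17 counts, Cela2a and Cpb1 15 each, Cpa1 8, and Ctrb1 and Try5 2 each. Reads shared with related genes were not gauged for these markers. The sum of 13 acinar markers was 1.64 to 14.8 CPM in the small intestine, where Clps was high, and 69.0 to 294 CPM in the colon, from Cela1 and Sycn. The part of acinar cells in the Clps values was not tested. Of 5 tested lipid digestion genes, Pnliprp2, a lipase of the pancreatic family, was lower in colon than in ileum (-5.20, SE 0.308, adjusted p = 1.19e-18) and Lipc, hepatic lipase, lower in ileum than in duodenum (-3.75, SE 0.449, adjusted p = 3.00e-09), and 1 was higher and 3 lower in colon than in duodenum. In ileum against duodenum 1 of these 5 was higher and 1 lower, and in colon against ileum 1 higher and 2 lower, and the list medians were -1.37, 0.17 and -0.15 for colon against duodenum, ileum against duodenum and colon against ileum. None passed the test in a VSG contrast.

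Maob was at similar levels in the duodenum and ileum and lower in the colon. It averaged 30.7 ± 8.74 CPM in the duodenum, 32.4 ± 10.45 CPM in the ileum and 25.8 ± 3.75 CPM in the colon (SD, n = 16 each). In the duodenum, ileum and colon, sham ad libitum means were 32.5, 37.2 and 25.8 CPM and weight-matched means 37.2, 40.2 and 28.2 CPM. The VSG means were 23.7, 21.999 and 23.9 CPM in the same order, so the lower colon mean was seen in the sham groups only. Whether the region differences depend on surgery was not tested. Ileum against duodenum gave 0.06 (SE 0.0961, adjusted p = 0.655). The colon was lower than the ileum (log2 fold change -0.31, SE 0.0970, adjusted p = 0.00750), in 11 of 16 mice, and lower than the duodenum (-0.24, SE 0.0965, adjusted p = 0.0310), in 11 of 15 mice. The call against the duodenum was lost without the mouse 27 library (-0.19, adjusted p = 0.0941), without mouse 11, 12, 21, 27, 30 or 32, and with the mouse as a fixed block (-0.24, adjusted p = 0.0508).

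In the ileum the sham ad libitum libraries had 51.4, 39.1, 35.6, 31.8 and 27.9 CPM of Maob and the weight-matched libraries 46.5, 42.0, 29.7, 37.1 and 45.6 CPM. The VSG libraries had 18.3 to 26.5 CPM (median 21.6 CPM). All 6 VSG libraries were below all 10 sham libraries, with log2 differences of -0.77 (SE 0.166) from sham ad libitum and -0.88 (SE 0.165) from weight-matched mice. In the duodenum VSG libraries had 17.9 to 31.6 CPM and overlapped the sham groups, at 24.4 to 39.996 and 25.5 to 48.9 CPM, with differences of -0.46 (SE 0.163) and -0.65 (SE 0.163). In the colon the differences were -0.11 (SE 0.166) and -0.24 (SE 0.166).

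Of 11 other tested genes of monoamine handling, 2 were higher and 4 lower in ileum than in duodenum, 3 higher and 3 lower in colon than in duodenum, and 5 higher and 4 lower in colon than in ileum, with list medians of -0.17, 0.17 and 0.21. Maoa, the paralog of Maob, was higher in colon than in duodenum (1.30, SE 0.246, adjusted p = 1.82e-05) and higher in ileum than in duodenum (0.62, SE 0.244, adjusted p = 0.0447), and stood at 38.1, 54.9 and 88.3 CPM per kilobase against 10.99, 11.6 and 9.26 for Maob. Tph1, the serotonin-synthesising hydroxylase, was lower in ileum than in duodenum (-1.18, SE 0.169, adjusted p = 2.07e-07), and Slc18a2, a vesicular monoamine transporter, was lower in colon than in duodenum (-4.69, SE 0.273, adjusted p = 1.74e-19). Aoc1, diamine oxidase, was higher in ileum than in duodenum (1.67, SE 0.265, adjusted p = 2.75e-06). None of the 11 passed the test in a VSG contrast, with Maoa at -0.36 (SE 0.238) from sham ad libitum and -0.67 (SE 0.238) from weight-matched mice.

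Kirrel was the third gene of the colon. It averaged 8.72 ± 3.60 CPM in the duodenum, 8.23 ± 3.27 CPM in the ileum and 33.8 ± 14.8 CPM in the colon (SD, n = 16 each), and colon was higher in every mouse with the libraries. The differences were 1.97 (SE 0.162, adjusted p = 6.72e-15) from the duodenum and 2.05 (SE 0.165, adjusted p = 5.33e-15) from the ileum, and ileum against duodenum gave -0.07 (adjusted p = 0.784).

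In the colon the sham ad libitum libraries had 44.6, 68.4, 42.0, 28.2 and 24.2 CPM of Kirrel, the weight-matched libraries 34.0, 30.1, 27.1, 27.5 and 64.7 (mouse 31) CPM and the VSG libraries 16.6 to 33.9 CPM (median 23.8 CPM). VSG libraries were at the low end and overlapped both groups. The log2 differences of VSG from sham ad libitum mice were -0.93 (SE 0.276) in the duodenum, -0.70 (SE 0.285) in the ileum and -0.74 (SE 0.262) in the colon, and those from weight-matched mice -0.37 (SE 0.283), -0.04 (SE 0.290) and -0.56 (SE 0.262). The colon values were -0.48 without mouse 13 and -0.25 without mouse 31, respectively. Of 6 tested relatives and partners, Kirrel2 was lower in colon than in duodenum (-3.02, SE 0.382, adjusted p = 2.40e-09), opposite to Kirrel. In that contrast 2 of the 6 were higher and 3 lower, between colon and ileum 1 higher and 1 lower, and between ileum and duodenum 1 higher and 1 lower, with list medians of -0.20, -0.04 and -0.18. None of the 6 passed the test in a VSG contrast.

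Hjurp was a gene of the small intestine, at 170.2 ± 35.1 CPM in the duodenum, 158 ± 28.2 CPM in the ileum and 71.1 ± 9.12 CPM in the colon (SD, n = 16 each). Every colon library was below every small-intestinal library, with a log2 fold change of -1.25 (SE 0.0752, adjusted p = 1.03e-19) from the duodenum and -1.15 (SE 0.0751, adjusted p = 3.82e-18) from the ileum. Per kilobase of exon it was second of the 9 genes in the duodenum, at 20.4 CPM. Ileum against duodenum gave -0.10 (adjusted p = 0.332).

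In the duodenum the sham ad libitum libraries had 223, 201, 218, 238 and 173 CPM of Hjurp, the weight-matched libraries 148, 178, 112 (mouse 27), 174 and 154 CPM and the VSG libraries 127 to 174 CPM (median 150.1 CPM). Of the 5 sham ad libitum libraries 4 lay above all libraries of the other groups. The log2 difference of VSG was -0.48 (SE 0.125) from sham ad libitum and -0.02 (SE 0.126) from weight-matched mice, and that of weight-matched from sham ad libitum mice -0.46 (SE 0.131). In the ileum the VSG difference was -0.37 (SE 0.126) from sham ad libitum and -0.16 (SE 0.126) from weight-matched mice, and in the colon -0.17 (SE 0.127) and -0.12 (SE 0.127).

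Of 13 other genes of CENP-A loading and proliferation, 11 were lower in colon than in ileum, where 25.4% of all tested genes were, and 9 lower in colon than in duodenum, where 28.3% were, with none higher in either. In ileum against duodenum 6 were higher and 1 lower. The median log2 fold changes of the list were -1.21, -0.85 and 0.44 in these contrasts. Cenpa itself was lower in colon than in ileum (-1.42, SE 0.212, adjusted p = 1.55e-07), as was Top2a, a topoisomerase of dividing cells (-1.93, SE 0.188, adjusted p = 8.13e-12). The sum of 5 crypt markers such as Lgr5 was 76.7 to 125 CPM in the colon and 500 to 1725 CPM in the duodenum. It was 868.3 to 3661.5 CPM in the ileum. Of these markers 3 of 5 were called lower in colon than in duodenum (median log2 fold change -0.90) and 5 of 5 lower in colon than in ileum (median -1.84). In ileum against duodenum 5 of 5 were called higher (median 0.88), where Hjurp was at -0.10. The part of crypt cells in the Hjurp level was not tested. None of the 13 passed the test in a VSG contrast, and Cenpa had a log2 difference of 0.10 (SE 0.205) from sham ad libitum mice, against -0.34 (SE 0.0728) for Hjurp.

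Averaged over the 3 regions, VSG minus sham ad libitum mice gave positive values for Slc30a10 (1.28, SE 0.338) and Ces1d (0.09, SE 0.148) and negative values for the other genes. Cubn was at -1.45 (SE 0.402), and Slc28a1 over duodenum and ileum only at -1.55 (SE 0.417). By edgeR 0 of the 9 genes and 0 of all tested genes (0%) were called in that contrast. An unadjusted p below 0.05 was reached by 837 of the 15126 tested genes, where a share of about 0.05 would reach it with no difference. DESeq2 called 26 genes (0.172% of those tested), 8 of them from this list, all but Ces1d. The comparison repeats the choice of the genes and nothing is read from it.

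Against weight-matched mice the values were -0.59 (SE 0.0949) for Maob, -1.35 (SE 0.406) for Cubn, -0.86 (SE 0.308) for Ces1g, -0.32 (SE 0.161) for Kirrel, -0.28 (SE 0.195) for Clps and -0.10 (SE 0.0729) for Hjurp, with 0.59 (SE 0.1496) for Ces1d and 0.64 (SE 0.328) for Slc30a10. The Slc30a10 value was 1.28 (SE 0.237) without the duodenum library of mouse 27, and the Kirrel value -0.19 without mouse 31. Slc28a1 over duodenum and ileum only was at -2.25 (SE 0.415). The count called by edgeR was 1 of the 9 genes, Maob, and 0.245% of all tested genes, and it too repeats the choice. Both VSG contrasts use the same 18 VSG libraries. Between weight-matched and sham ad libitum mice none of the 9 was called, with 0.0529% of tested genes called, and values were -0.50 (SE 0.155) for Ces1d, -0.59 (SE 0.199) for Clps (-0.35 without mouse 32), -0.47 (SE 0.165) for Kirrel and -0.24 (SE 0.0762) for Hjurp.

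Within regions, the values of every library show how far the groups lay apart, again as a description of the choice. Groups did not overlap between VSG and sham ad libitum mice for 1 of the 9 genes in the duodenum (Ces1g, where 0.542% of tested genes did not), 2 in the ileum (Slc28a1 and Maob, 0.549%) and 1 in the colon (Slc30a10, 0.41%). Against weight-matched mice 1 gene did not in each region, Slc28a1 in the duodenum (0.529%), Maob in the ileum (0.549%) and Ces1d in the colon (0.443%).

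**Figure D5:**
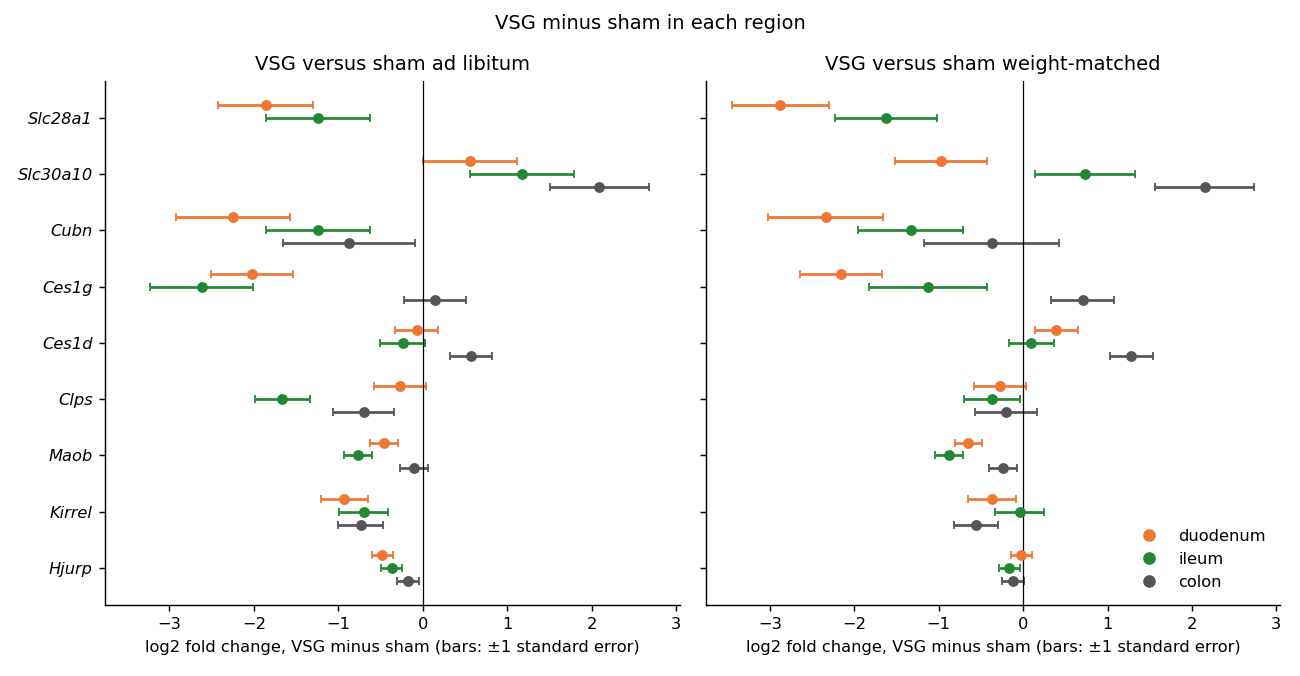
Log2 fold changes of VSG minus sham ad libitum (left) and VSG minus weight-matched mice (right) in each region, with bars of 1 standard error, for the 9 genes, shown as a description because these differences chose the genes. Slc30a10 lies to the right in the colon in both panels, and Ces1g lies to the left in the duodenum and ileum and near or above 0 in the colon. The colon values of Slc28a1 are left out.

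Enterocyte markers moved with part of these values. In the duodenum 15 of 15 enterocyte markers were fitted lower in VSG than in sham ad libitum mice (median log2 difference -0.51, 0 called), with sums of 5924 to 7986 CPM and 6218 to 15729 CPM. Against weight-matched mice, 15 of 15 were fitted lower too (median -1.20, 1 called), with weight-matched sums of 7290 to 50261 CPM. In the ileum 7 of 15 were fitted lower against sham ad libitum mice (median 0.01) and 13 of 15 against weight-matched mice (median -0.59). In the colon, where Slc30a10 was higher, 8 of 15 were fitted lower against sham ad libitum mice (median -0.12) and 4 of 15 against weight-matched mice (median 0.42). None of the 15 passed the test in the ileum or colon. In VSG against sham ad libitum colon, 0 of 7 colonocyte (median 0.59) and 0 of 6 goblet markers (median 0.44) were fitted lower. Against weight-matched colon 3 of 7 (median 0.26) and 0 of 6 (median 0.25) were, and none passed the test. Of the VSG colon libraries, mouse 18, lowest for Slc30a10, was also lowest in colonocyte (1973 CPM) and goblet sums (3811 CPM). The part of enterocyte, colonocyte or goblet RNA in the VSG differences was not tested.

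The duodenum library of mouse 27 had the highest enterocyte sum of the duodenum. Its sums of Paneth, goblet (5766 against at most 4622 CPM), colonocyte (1238 against at most 971 CPM), tuft (68.9 against at most 40.02 CPM) and immune markers were also the highest there, and its enteroendocrine sum the lowest, and so the levels of this library cannot be told apart by cell type. Its level over the mean of the other 4 weight-matched duodenum libraries was 15.4-fold for Slc30a10, 6.46-fold for Slc28a1, 4.16-fold for Cubn, 3.41-fold for Ces1g and 1.43-fold for Maob. It was 1.04-fold for Clps and below 1 for Hjurp (0.687), Kirrel (0.678) and Ces1d (0.614). Over all 48 libraries, after the mean of each group was removed, the log2 level of each gene correlated with the log2 enterocyte sum at r = 0.74 for Slc30a10, 0.65 for Slc28a1, 0.60 for Cubn, 0.48 for Maob and 0.45 for Ces1g. The values were 0.17 for Clps, 0.03 for Ces1d, -0.39 for Kirrel and -0.58 for Hjurp, and without that library 0.55, 0.54, 0.56, 0.40 and 0.34 for the first 5 genes. These are descriptions, since 1 library had most of these sums raised together, libraries of a mouse share the animal and the scaling sets genes of different cells against each other.

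The 9 genes did not form 1 group across libraries. Over their 36 pairs, the correlation of group-centred log2 levels had a median of 0.02 and ran from -0.41 for Slc28a1 with Hjurp to 0.59 for Cubn with Ces1g, the sole pair over 0.5. Among all tested genes, those most like Slc30a10 were Sectm1b (r = 0.87), Unc5b (0.84) and Slc9a3r1 (0.84), the last a scaffold protein of the brush border. Those most like Cubn were Ano6 (0.72), Muc3 (0.69), a membrane mucin, and Cyp3a25 (0.69), and those most like Slc28a1 were Gm10680 (0.72), Dnase1 (0.72) and Agmo (0.71).

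For Ces1g the most alike were Gm5485 (0.71), Mettl7b (0.65) and Sord (0.64), and for Ces1d Efcc1 (0.58), Gm10384 (0.56) and Gm10642 (0.55). Maob was most like Mcl1 (0.63), Rras2 (0.63) and the serotonin transporter gene Slc6a4 (0.62). Clps was most like Habp2 (0.64), Qsox1 (0.58) and Gm14851 (0.57), Kirrel like Adcy1 (0.74), Ulk2 (0.73) and Neurl4 (0.71), and Hjurp like Mlh3 (0.69), Parp1 (0.68) and Med12 (0.67). All are Pearson correlations over 48 libraries of 17 mice, picked as the highest of 15126 genes and given with no test.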

How the data were processed

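The authors deposited whole-number counts of reads per Ensembl gene for 48 libraries of sorted cells, without normalization. RNA (2 ng per library) was made into stranded total RNA libraries and read as single-end 50-base reads, and the study's methods and the submitters' processing notes give alignment to GRCm38 with STAR 2.5.1. The strand setting of the counting is not given in the sources used here. The study's own test was DESeq2 with surgery in interaction with region.

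Groups and regions follow the labels, and the code in each sample's description numbers its mouse. Symbols and exon lengths were taken from GENCODE M21, where 53360 of 53465 identifiers were found. Counts were tested with edgeR 4.0.16 in R 4.3.3 (filterByExpr with the 9 surgery-by-region groups, TMM, robust quasi-likelihood fit with 1 mean per group, Benjamini-Hochberg adjustment at 0.05). The fit used all 48 libraries, and its common biological coefficient of variation was 0.302. The standard error of a log2 fold change is its size divided by the square root of F. Limits for a count of 0 used 3 counts. DESeq2 1.42.0 and limma 3.58.1 served as alternatives. The fit was tested on simulated counts. Correlations used log2 CPM with a prior count of 2, and reads shared between genes were gauged by 50-base words of the exons found in another gene. Libraries held 4648651 to 17182463 counts.

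The genes and the pathway and marker lists were chosen with earlier results of these data known. All 9 genes are named, and of each pathway list up to 2 called genes per direction of largest change in a region contrast and the relative of highest CPM could be named. Likeness genes were the 3 of highest correlation with each gene, and marker genes are named as examples of their lists. Same-numbered libraries come from the same animal, so regions are paired within mice. Over 46 such pairs the correlation of deviations from the group means had a median of 0.105 (-0.0201 to 0.389), with 26 pairs over 0.1. Surgery groups hold different mice and are not paired.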

Additional observations from a re-analysis of the deposited data

Results flagged for a closer look

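In 80 groups of 5 or 6 libraries, 9 had a library whose gap to its nearest neighbour took up more of the group's range than Dixon's 95% limit. Chance passes that limit in about 1 in 20 groups of independent, normally distributed values. CPM were used without logs and groups share libraries, so the 9 are not read against that rate. Levels are CPM, and the first number given for each is that share of the range.

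In the weight-matched duodenum, mouse 27 was highest for Slc28a1 at 0.956 (57.8 against 10.3 CPM for the next library) and for Slc30a10 at 0.941 (142.8 against 12.97 CPM). Its enterocyte marker sum in that library was 50261 CPM. The single Slc28a1 count in the VSG colon, in mouse 22, gave 1.0 (0.109 CPM against 0). Slc30a10 in the sham ad libitum ileum was highest in mouse 19 at 0.823 (11.004 against 5.22 CPM).

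Cubn in the ileum was flagged at both ends, highest in sham ad libitum mouse 12 at 0.733 (740.0 against 272 CPM) and lowest in weight-matched mouse 29 at 0.774 (107 against 324 CPM). Mouse 12 is the mouse whose ileum and colon labels disagree with its codes, while its marker sums match the labels. Ces1d in the VSG colon was highest in mouse 25 at 0.632 (190.2 against 108 CPM). Clps in the sham ad libitum ileum was highest in mouse 32 at 0.765 (70.5 against 26.7 CPM), and Kirrel in the weight-matched colon in mouse 31 at 0.816 (64.7 against 34.0 CPM). What sets these libraries apart was not tested.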

How the results depend on the processing

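Of the 9 genes, the 6 that differed between ileum and duodenum were 6 with DESeq2, 5 with sham libraries only and 4 with the second library index as a covariate. The calls lost were Clps with sham libraries only, and Ces1d and Clps with the covariate. The 8 between colon and duodenum ranged from 7 to 9 and the 9 between colon and ileum from 8 to 9 over all alternatives. With the mouse as a fixed replicate block the counts were 6, 7 and 9, and the call lost was Maob between colon and duodenum. Signs reversed for Slc30a10 between colon and duodenum (0.068 with the mouse as a random replicate block, 0.36 without the duodenum library of mouse 27, and -0.39 to 0.30 without 1 mouse, the positive value being without mouse 27), and with the index covariate for Maob (-0.37), Kirrel (0.31) and Hjurp (0.076) between ileum and duodenum. The index largely follows the region, so that fit can hardly tell them apart, and the cause was not tested.

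Calls of the 9 genes between surgery groups repeat their choice, and their counts are given for completeness. For VSG minus sham ad libitum the count of 0 called became 8 with DESeq2, 6 without the duodenum library of mouse 27, 5 with only the libraries of both groups and 2 over duodenum and ileum only, an average chosen after seeing the data. It ran from 0 to 6 without 1 mouse, with 6 without mouse 27, 2 without mouse 24 and 1 without mouse 13, 22, 25, 29, 30 or 32. For VSG minus weight-matched mice the count of 1 was 2 with DESeq2, 2 without the duodenum library of mouse 27 and 3 over duodenum and ileum only. It ran from 1 to 2 without 1 mouse, with 2 without mouse 27 or 28. Between the sham groups it stayed 0 in every alternative run.

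Over all tested genes, the 5110 calls between ileum and duodenum became 1713 with the index covariate and 3259 with sham libraries only, and the covariate gave 4236 against 8322 between colon and duodenum. For VSG minus weight-matched mice the 37 calls became 102 with DESeq2, 92 over duodenum and ileum only, 24 without the filter on low counts, 22 with only both groups and 9 with limma and the mouse as a random block, and ran from 19 to 40 without 1 mouse. Between the sham groups the 8 calls ran from 2 to 13. Depth limits Slc28a1 in the colon and Ces1g in the ileum, where libraries hold few counts.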
